A study of Homo sapiens with 8 samples.

Results

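The change of the JIB-04 effect with time was described across 15248 genes, those that passed a filter on low counts among the 24077 genes present in both deposited tables, of 29811 present in either. AML-OCI3 cells, an established human line of acute myeloid leukaemia, were profiled by RNA-seq in 4 groups of 2 libraries: 40 nM JIB-04 for 48 h, DMSO (the vehicle) for 48 h, 40 nM JIB-04 for 24 h and DMSO for 24 h. All 8 libraries came from this line in RPMI medium with serum, were given no venetoclax, and entered every fit. The study is about JIB-04, venetoclax and ferroptosis in acute myeloid leukaemia. In the text, the effect of JIB-04 at a time is the log2 ratio of JIB-04 over DMSO at that time, and its change is the effect at 48 h minus the effect at 24 h. A positive change is therefore a move of the JIB-04 libraries upwards relative to their own DMSO libraries between the times.

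JIB-04 inhibits JmjC-domain histone demethylases, enzymes that use iron and alpha-ketoglutarate to take methyl groups off histone lysines. Ferroptosis is a death by iron-dependent peroxidation of membrane lipids: ferritin holds iron in a safe store, the transferrin receptor brings it in, and cystine import feeds the glutathione that repairs the lipids. Cells under stress of the endoplasmic reticulum raise chaperones through the unfolded protein response, and cells short of amino acids or under other stress raise ATF4 and its targets.

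The libraries held 18783093 to 22193377 counts, of which genes of the mitochondrial genome took 6.18% to 8.01%. All 10 markers of the myeloid leukaemia line reached a median of at least 1 CPM (counts scaled to TMM-normalised library size), and their sum was 2510 to 3140 CPM per library. Most of it was NPM1, with 1910 to 2570 CPM, while MPO, CD14 and ITGAM had medians of 2.24, 1.39 and 2.77 CPM. Only 1 of 6 erythroid and 1 of 5 epithelial markers were in both tables, at no more than 0.204 CPM. The T or NK markers summed to 9.91 to 37.1 CPM, megakaryocyte markers to 2.69 to 3.78 CPM and fibroblast markers to 1.33 to 2.21 CPM. In 3 groups the difference between replicates moved with gene GC content. Its SD on the log2 scale, over 7972 genes with a mean log2 CPM above 4, was 0.249 with JIB-04 and 0.110 with DMSO at 48 h, and 0.311 with JIB-04 and 0.385 with DMSO at 24 h. After each library's smooth trend with gene GC content was removed, these SDs were 0.130, 0.104, 0.143 and 0.191 in the same order. Each comparison is therefore given in a plain fit (edgeR's quasi-likelihood test on all 8 libraries, 1 mean per group) and in a GC-adjusted fit (the same with that trend as an offset). Nothing in the labels says that replicates came from separate cultures, so p-values measure only the spread between these libraries, which may be technical.

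In the plain fit, 0 of 15248 genes (0%) passed an adjusted p of 0.05 for the change of the effect. The smallest adjusted p was 0.0842, and 798 genes (5.23%) had an unadjusted p under 0.05, 331 with a positive and 467 with a negative change. DESeq2 called 12 genes for the change, FTH1, CEMIP, LDLRAD4, PLIN2 and EMP1 among them, and limma-voom called 1. The same plain fit called 59 genes (0.387%) for the effect at 48 h, and for the effect at 24 h it called 0 genes (0%), with 1647 genes at an unadjusted p under 0.05, where DESeq2 called 87 and limma-voom 0. The count of 59 was 5 and 8 without JIB-04 48 h replicate 1 or 2, 0 without either DMSO 48 h replicate, 29 and 30 without JIB-04 24 h replicate 1 or 2, and 104 and 108 without DMSO 24 h replicate 1 or 2. The GC-adjusted fit called 165 genes (1.08%) for the change, 101 positive and 64 negative, beside 1232 genes (8.08%) for the effect at 48 h and 1628 genes (10.7%) for that at 24 h. All 165 had the same sign in the plain fit, and 122 of them had an unadjusted p under 0.05 there. The count of 165 rested on nearly every library. It was 5 without JIB-04 48 h replicate 1, 10 without JIB-04 48 h replicate 2, 0 without DMSO 48 h replicate 1 (1641 genes at an unadjusted p under 0.05) and 5 without DMSO 48 h replicate 2. It was 9 and 6 without JIB-04 24 h replicate 1 or 2, and 255 and 158 without DMSO 24 h replicate 1 or 2. From here on, a change is said to have passed where it did so in the GC-adjusted fit, whose adjusted p is then given, while fold changes with their SE are those of the plain fit.

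Across all 15248 genes, the effects at 48 h and at 24 h, which share no library, had a Pearson r of 0.179 and a Spearman rho of 0.243 in the plain fit. Among the 7972 genes with a mean log2 CPM over 4 the values were 0.349 and 0.283, and 0.50 and 0.435 in the GC-adjusted fit (7973 genes). These are descriptions across genes, which are not independent replicates, and rho over all genes was 0.0136 without DMSO 24 h replicate 1, 0.0767 without JIB-04 24 h replicate 1 and 0.426 without DMSO 24 h replicate 2. Genes were then sorted by a rule on the plain fit. A gene moved at a time if its effect had an unadjusted p under 0.05, a fold of at least 1.5, and no overlap between JIB-04 and DMSO libraries. By that rule 795 genes moved at 48 h and 694 at 24 h, and 165 did so at both times, 20.8% of the 48 h genes and 23.8% of the 24 h genes. Among all tested genes, 5.21% moved at 48 h and 4.55% at 24 h. Late genes, whose effect was larger at 48 h, numbered 213 (1.4% of tested genes; 143 higher and 70 lower). Early genes, whose effect was larger at 24 h, numbered 165 (1.08%; 113 higher and 52 lower). Lasting genes, with the same direction at both times and no change at an unadjusted p under 0.05, numbered 133 (0.872%; 79 higher and 54 lower), 14 genes moved in opposite directions and 799 fell in no class. The readout itself sorts these genes, so that their counts are descriptions. Leaving out single libraries gave 135 to 373 late genes (135 without DMSO 48 h replicate 1, 373 without DMSO 24 h replicate 1), 78 to 434 early genes (78 without JIB-04 48 h replicate 1, 105 and 103 without DMSO 48 h replicate 1 or 2, 378 without JIB-04 24 h replicate 1, 434 without DMSO 24 h replicate 1), and 106 to 327 lasting genes (327 without DMSO 24 h replicate 2). The split of early genes by direction also moved, to 115 higher and 88 lower in the GC-adjusted fit, and it turned without DMSO 24 h replicate 1 (213 higher and 221 lower) and without JIB-04 24 h replicate 2 (55 higher and 68 lower).

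**Figure D1:**
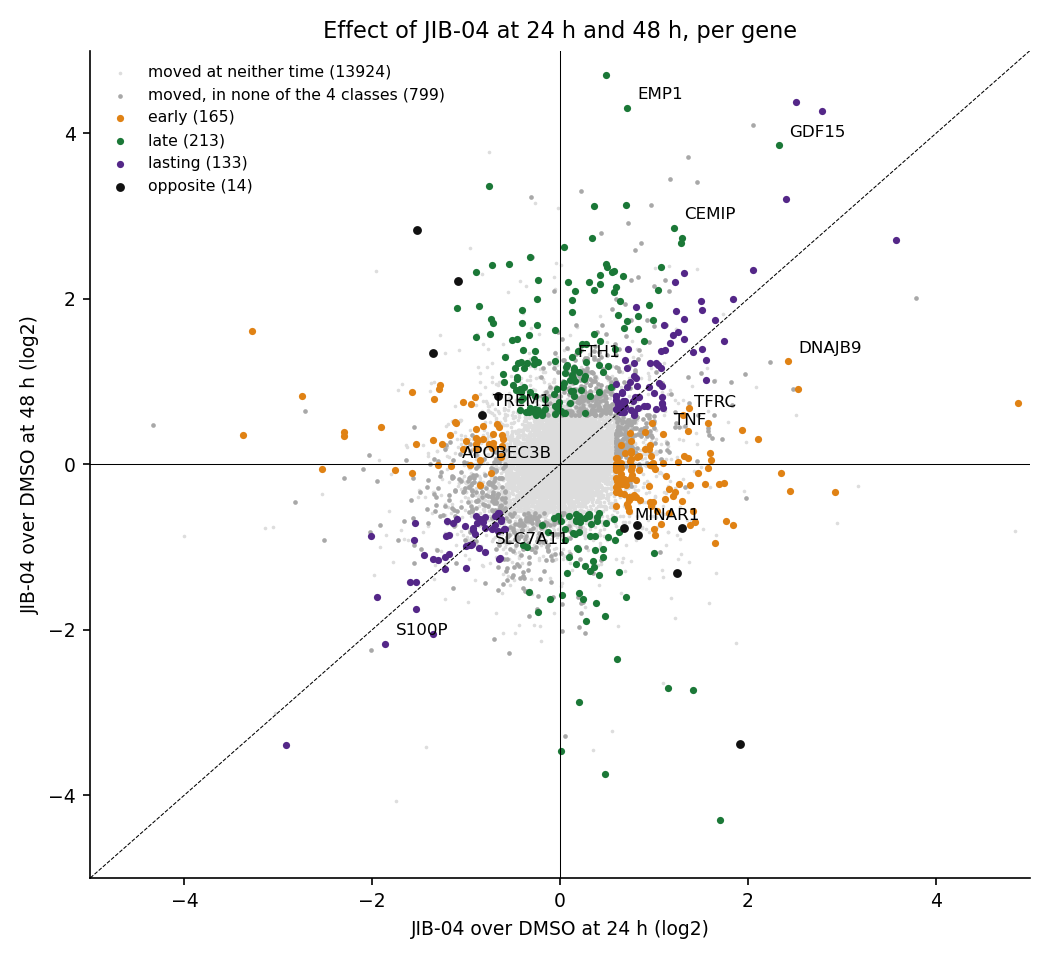
Effect of JIB-04 on each tested gene at 48 h (vertical, log2 JIB-04 over DMSO, plain fit) against that at 24 h (horizontal), coloured by the class rule, with the dashed line where both are equal. 38 genes with an effect beyond 5 at either time are not drawn; FTH1 and CEMIP lie above the dashed line, with a larger effect at 48 h, and TFRC and DNAJB9 below it.

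In a first group of genes with a positive change, the JIB-04 libraries at 48 h were above all others. FTH1 (chr11:61959718-61967660, hg38), the heavy chain of ferritin, had 834 and 792 CPM with JIB-04 and 344 and 365 CPM with DMSO at 48 h, against 410 and 416 CPM with JIB-04 and 411 and 374 CPM with DMSO at 24 h. The JIB-04 libraries at 48 h thus stood alone, and the other 6 libraries lay together. Its effect was 1.20 ± 0.10 at 48 h and 0.07 ± 0.10 at 24 h, a change of 1.12 ± 0.14 (SE; 2.18-fold), with an adjusted p of 0.167 in the plain fit, 0.00254 in the GC-adjusted fit and 2.63e-06 in DESeq2. Between the times FTH1 rose by 0.98 ± 0.10 in the JIB-04 libraries (plain fit, adjusted p = 0.0128), while the DMSO libraries differed by -0.15 ± 0.10 (adjusted p = 0.629). In bulk RNA, fewer cells of a kind and less RNA per cell cannot be told apart, here and in all that follows.

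FTL, the light chain of ferritin, had 2230 and 1830 CPM with JIB-04 and 1360 and 1230 CPM with DMSO at 48 h, against 1470 and 1140 CPM with JIB-04 and 1220 and 1370 CPM with DMSO at 24 h. Groups overlapped at 24 h and not at 48 h. The change of 0.63 ± 0.21 passed (adjusted p = 0.0292). Both ferritin genes have many processed pseudogenes, so that their counts are less certain than those of single-copy genes. PLIN2 (chr9:19108375-19149290), a coat protein of lipid droplets, had 213 and 187 CPM with JIB-04 and 96.9 and 99.7 CPM with DMSO at 48 h, against 102 and 94.8 CPM with JIB-04 and 97.2 and 85.6 CPM with DMSO at 24 h. As for FTH1, the JIB-04 libraries at 48 h were set apart from the rest, with an effect of 1.02 ± 0.12 at 48 h and 0.11 ± 0.12 at 24 h. The PLIN2 change of 0.91 ± 0.17 passed (adjusted p = 0.016).

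PPP1R15A (chr19:48872392-48876057), which directs a phosphatase to eIF2alpha, had 112 and 94.3 CPM with JIB-04 and 24.2 and 23.7 CPM with DMSO at 48 h, against 54.8 and 43.6 CPM with JIB-04 and 22.2 and 25.7 CPM with DMSO at 24 h. The DMSO libraries were alike at both times, and the JIB-04 libraries were above them at 24 h and further above at 48 h, with effects of 2.11 ± 0.16 and 1.04 ± 0.16 and a change of 1.07 ± 0.22 that passed (adjusted p = 0.016). SQSTM1, an autophagy receptor that also holds back the NRF2 inhibitor KEAP1, had 286 and 220 CPM with JIB-04 and 85.3 and 76.4 CPM with DMSO at 48 h, against 127 and 104 CPM with JIB-04 and 59.3 and 84.7 CPM with DMSO at 24 h. Its change of 0.96 ± 0.28 passed (adjusted p = 0.016). DDIT3, the stress transcription factor CHOP, had effects of 1.49 ± 0.13 at 48 h and 0.89 ± 0.13 at 24 h. Its change of 0.61 ± 0.18 passed (adjusted p = 0.0368). GDF15, a secreted stress cytokine, had 19.2 and 13.9 CPM with JIB-04 and 1.28 and 0.999 CPM with DMSO at 48 h, against 2.99 and 2.03 CPM with JIB-04 and 0.297 and 0.680 CPM with DMSO at 24 h. JIB-04 and DMSO libraries did not overlap at either time. Its effects were 3.86 ± 0.33 and 2.33 ± 0.40. Its change of 1.52 ± 0.56 did not pass (adjusted p = 0.133).

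In further genes, too, the JIB-04 libraries at 48 h were above all others. AKR1C1 and AKR1C2, a pair of near-identical aldo-keto reductases whose reads can be split unevenly, had changes of 0.99 ± 0.19 and 1.77 ± 0.31 that passed (adjusted p = 0.0292 and 0.0244). AKR1C2 had 17.8 and 15.4 CPM with JIB-04 and 6.84 and 5.90 CPM with DMSO at 48 h, against 2.12 and 3.20 CPM with JIB-04 and 3.52 and 3.44 CPM with DMSO at 24 h, so that DMSO too was higher at the later time. SAT1, which acetylates spermidine and spermine, had 44.2 and 46.6 CPM with JIB-04 and 13.6 and 13.5 CPM with DMSO at 48 h, against 16.5 and 18.8 CPM with JIB-04 and 10.2 and 7.66 CPM with DMSO at 24 h. Its change of 0.76 ± 0.23 passed (adjusted p = 0.0285). ZFP36L1, an RNA-binding protein that speeds mRNA decay, had a change of 1.55 ± 0.26 (adjusted p = 0.0244), from an effect of 2.14 ± 0.18 at 48 h and 0.59 ± 0.19 at 24 h. PTGER4, a prostaglandin E receptor, had a change of 0.90 ± 0.20 (adjusted p = 0.0265), and LRRC25, a leucine-rich repeat protein, 2.25 ± 0.42 (adjusted p = 0.0363). EMP1, an epithelial membrane protein, is below the level set for named genes and was picked after its values were seen. It had 5.93 and 5.78 CPM with JIB-04 and 0.308 and 0.272 CPM with DMSO at 48 h, against 0.875 and 1.07 CPM with JIB-04 and 0.495 and 0.680 CPM with DMSO at 24 h. Its change of 3.60 ± 0.45 passed (adjusted p = 0.0175). CRISPLD2, a secreted protein (2.13 ± 0.43, adjusted p = 0.0568), did not pass, while the pseudogene TMEM183BP did (1.93 ± 0.38, adjusted p = 0.0428).

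**Figure D2:**
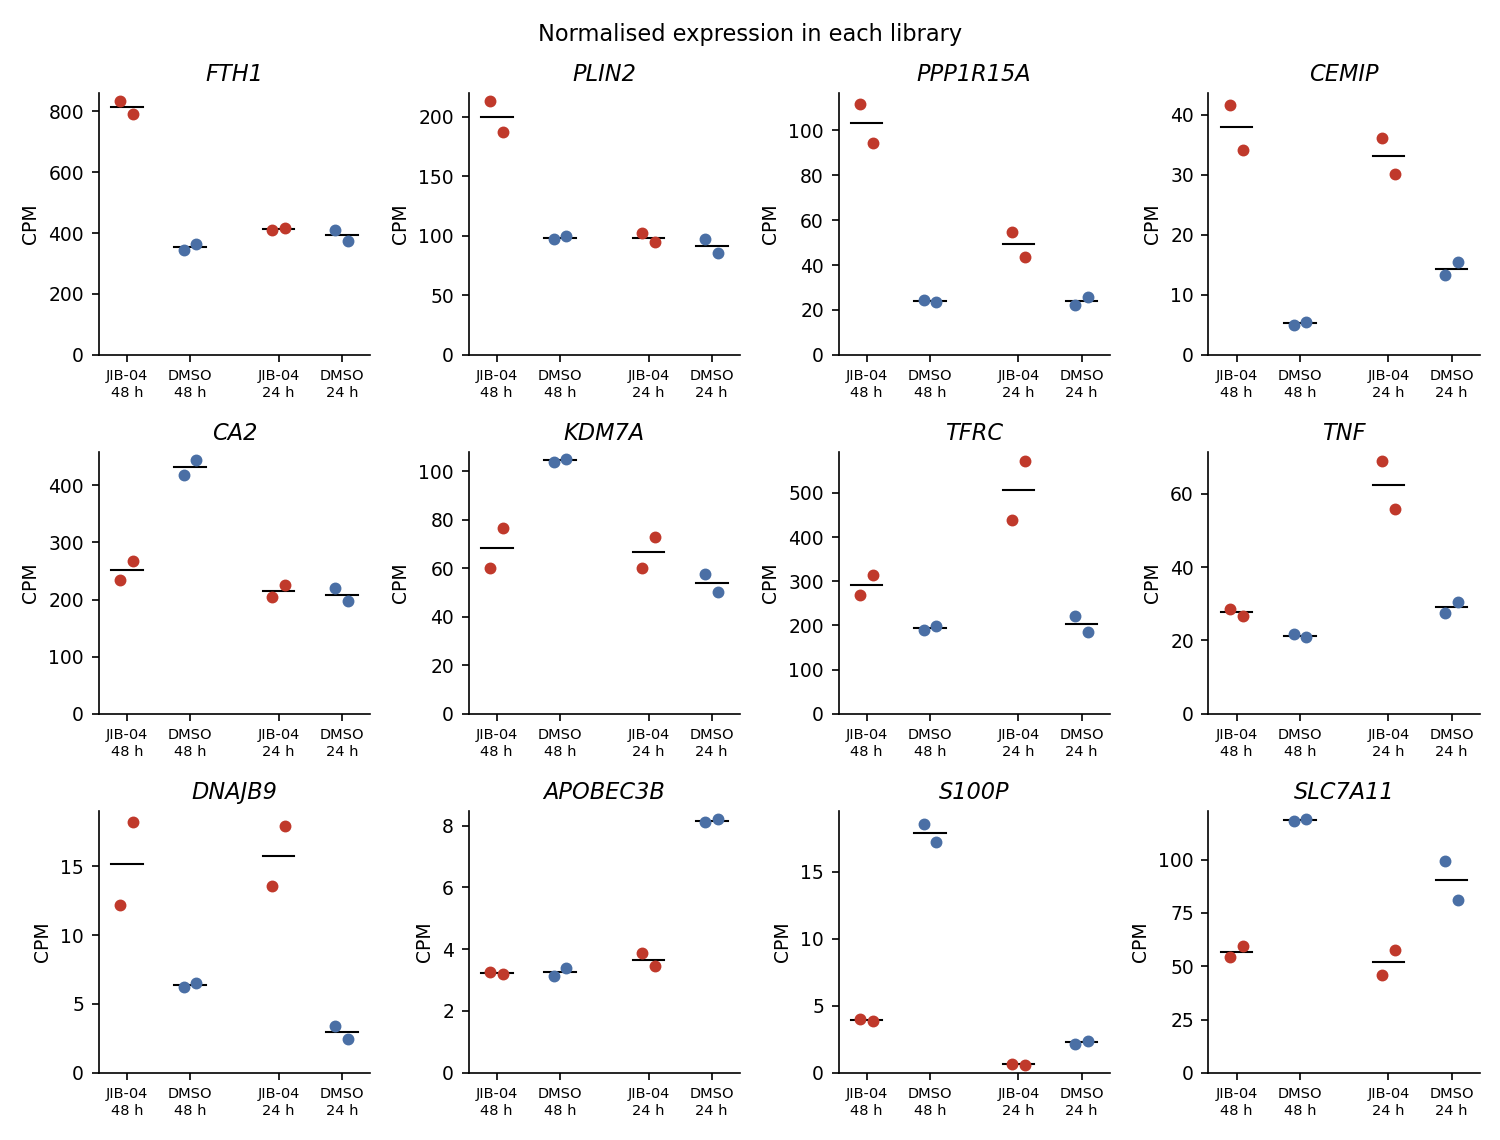
Normalised expression (CPM, linear axes from 0) of 12 named genes in each of the 8 libraries, JIB-04 in red and DMSO in blue, with the mean of each group as a bar. FTH1 and PLIN2 are high in the 2 JIB-04 libraries at 48 h alone, CA2 and KDM7A in the 2 DMSO libraries at 48 h, TFRC and TNF in the 2 JIB-04 libraries at 24 h, and APOBEC3B in the 2 DMSO libraries at 24 h.

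In a second group of late genes the DMSO libraries at 48 h were the lowest of all 8. CEMIP (chr15:80779343-80951776), a protein of hyaluronan breakdown, had 41.7 and 34.1 CPM with JIB-04 and 5.04 and 5.40 CPM with DMSO at 48 h, against 36.1 and 30.2 CPM with JIB-04 and 13.3 and 15.4 CPM with DMSO at 24 h. Its effects were 2.86 ± 0.18 and 1.21 ± 0.17, the change of 1.65 ± 0.24 passed (adjusted p = 0.00578), and in the plain fit CEMIP fell by 1.46 on the log2 scale in DMSO (adjusted p = 0.0208), while the JIB-04 libraries differed by 0.19 (adjusted p = 0.836). CD163, the macrophage receptor for haemoglobin and haptoglobin, had 15.7 and 13.8 CPM with JIB-04 and 7.25 and 6.67 CPM with DMSO at 48 h, against 18.7 and 18.6 CPM with JIB-04 and 17.9 and 16.1 CPM with DMSO at 24 h. Its change of 0.95 ± 0.21 passed (adjusted p = 0.0387). The lowest CD163 values were thus those of DMSO at 48 h. LYZ, the myeloid enzyme lysozyme, had 211 and 207 CPM with JIB-04 and 135 and 137 CPM with DMSO at 48 h, against 189 and 219 CPM with JIB-04 and 211 and 186 CPM with DMSO at 24 h, and VCAN, the proteoglycan versican, followed with 195 and 214 CPM, 130 and 136 CPM, 150 and 175 CPM, and 162 and 152 CPM. Their changes of 0.58 ± 0.17 and 0.57 ± 0.17 passed (adjusted p = 0.0244 and 0.016).

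GZMA, the protease granzyme A, had 13.8 and 16.3 CPM with JIB-04 and 5.19 and 6.4 CPM with DMSO at 48 h, against 22.2 and 29 CPM with JIB-04 and 23.7 and 21.1 CPM with DMSO at 24 h. Both arms were lower at 48 h, the DMSO arm more (-1.95 ± 0.20, adjusted p = 0.0108 in the plain fit) than the JIB-04 arm (-0.76 ± 0.19, adjusted p = 0.26). Its change of 1.18 ± 0.27 passed (adjusted p = 0.016). GZMA is also a marker of T and NK cells. Of the 6 such markers only GZMA and NKG7 were in both tables, and their sum was 23.3 to 25.6 CPM with JIB-04 and 9.91 to 11 CPM with DMSO at 48 h, and 34 to 37.1 CPM with JIB-04 and 29.4 to 31.2 CPM with DMSO at 24 h. Their part in the result was not tested. ARRDC3, an arrestin-domain protein, had 17.5 and 17.4 CPM with JIB-04 and 3.50 and 3.22 CPM with DMSO at 48 h, against 14.7 and 21.4 CPM with JIB-04 and 10.6 and 6.62 CPM with DMSO at 24 h. Its change of 1.31 ± 0.37 passed (adjusted p = 0.0285). FOS, an immediate early transcription factor, passed at 0.95 ± 0.23 (adjusted p = 0.0472).

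For a set of genes with a negative change, the DMSO libraries at 48 h were the highest group. CA2, a carbonic anhydrase, had 235 and 268 CPM with JIB-04 and 418 and 445 CPM with DMSO at 48 h, against 204 and 225 CPM with JIB-04 and 220 and 197 CPM with DMSO at 24 h. The DMSO libraries at 48 h stood above all others. CA2 rose by 1.05 ± 0.12 in DMSO (plain fit, adjusted p = 0.0171), the JIB-04 libraries differed by 0.22 ± 0.12 (adjusted p = 0.683). Its change of -0.83 ± 0.17 passed (adjusted p = 0.00713). KDM7A, itself a JmjC demethylase, had 59.9 and 76.7 CPM with JIB-04 and 104 and 105 CPM with DMSO at 48 h, against 60.3 and 72.8 CPM with JIB-04 and 57.8 and 50.4 CPM with DMSO at 24 h. Its change of -0.91 ± 0.22 passed (adjusted p = 0.016), and the arms were 0.04 ± 0.16 with JIB-04 and 0.95 ± 0.16 with DMSO. RGS16, which turns off G-protein signals (-0.90 ± 0.25, adjusted p = 0.0244), XAF1, an interferon-induced gene (-0.62 ± 0.22, adjusted p = 0.0417), and HOXA9, a homeobox factor of leukaemic cells (-0.41 ± 0.15, adjusted p = 0.0462), passed as well, with DMSO at 48 h again the highest group. RGS16, XAF1 and HOXA9 were not late by the class rule. Among genes that the rule sorted as late and lower with JIB-04, TSC22D3, a glucocorticoid-induced gene, had a change of -0.65 ± 0.22. CTH, which makes cysteine from cystathionine, had a change of -0.58 ± 0.24. These changes of TSC22D3 and CTH did not pass (adjusted p = 0.106 and 0.237), nor did those of GALNT4 (adjusted p = 0.18), CXCR5 (0.0934) and UBE2D1 (0.0667). The readthrough gene ZNF511-PRAP1 had no counts in either JIB-04 library at 48 h, and no fold is given.

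Among the 20 iron genes listed, only TFRC was early by the class rule. TFRC (chr3:196027183-196082189), the transferrin receptor, had 268 and 314 CPM with JIB-04 and 190 and 198 CPM with DMSO at 48 h, against 439 and 572 CPM with JIB-04 and 221 and 186 CPM with DMSO at 24 h. JIB-04 libraries were above DMSO libraries at both times, by 0.59 ± 0.16 at 48 h and 1.31 ± 0.16 at 24 h, and both effects passed in the GC-adjusted fit (adjusted p = 0.000488 and 4.21e-05). The change of -0.73 ± 0.22 passed as well (adjusted p = 0.0181). The JIB-04 libraries differed by -0.79 ± 0.16 between the times against -0.07 ± 0.16 in DMSO. STEAP3, which reduces the imported iron in endosomes, had 52.0 and 45.0 CPM with JIB-04 and 49.4 and 50 CPM with DMSO at 48 h, against 60.1 and 50.6 CPM with JIB-04 and 39.5 and 49.4 CPM with DMSO at 24 h. Its change was -0.35 ± 0.22 in the plain fit, with an interval that holds 0, and -0.48 ± 0.08 in the GC-adjusted fit, where it passed (adjusted p = 0.0363). Of the 20 iron genes listed, FTH1 and FTL passed with a positive change, TFRC and STEAP3 with a negative one, and the other 16 did not pass. Among all tested genes 1.08% passed.

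TNF (chr6:31575567-31578336), the inflammatory cytokine, had 28.6 and 26.7 CPM with JIB-04 and 21.7 and 21.0 CPM with DMSO at 48 h, against 68.9 and 55.8 CPM with JIB-04 and 27.6 and 30.5 CPM with DMSO at 24 h. Its effects were 0.37 ± 0.15 and 1.10 ± 0.14, it fell by 1.17 on the log2 scale between the times with JIB-04 (plain fit, adjusted p = 0.023). Its change of -0.73 ± 0.20 passed (adjusted p = 0.016). It was the only member of 25 listed NF-kB genes to pass, beside 1.08% called among all genes. CXCL8 (-0.43 ± 0.24, adjusted p = 0.615) did not pass. Most of the list went the other way from TNF. In the plain fit 17 of the 25 changes were positive and 8 negative, with a median of 0.24, and the median was 0.15 in the GC-adjusted fit. EGR1, an immediate early transcription factor, had 49.6 and 48.4 CPM with JIB-04 and 50.9 and 52.0 CPM with DMSO at 48 h, against 50.9 and 41.7 CPM with JIB-04 and 29.8 and 36.5 CPM with DMSO at 24 h, so that the DMSO libraries at 24 h alone were low. Its change of -0.55 ± 0.21 passed (adjusted p = 0.0285).

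SLC15A2, a peptide transporter, had 21.3 and 27.1 CPM with JIB-04 and 23.4 and 25.6 CPM with DMSO at 48 h, against 33.9 and 41.8 CPM with JIB-04 and 20.5 and 17.6 CPM with DMSO at 24 h. The groups overlapped at 48 h and not at 24 h (effects -0.02 ± 0.18 and 0.99 ± 0.18). Its change of -1.01 ± 0.25 passed (adjusted p = 0.0175). R3HDM2 (-0.77 ± 0.17, adjusted p = 0.0175), the potassium channel KCNQ5 (-1.04 ± 0.21, 0.0181), LDLRAD4, which dampens TGF-beta signalling (-1.51 ± 0.25, 0.0285), SKIL, a repressor of SMAD factors (-0.92 ± 0.25, 0.0285), C1QTNF3 (-1.53 ± 0.31, 0.0285) and the lipid kinase DGKH (-0.90 ± 0.20, 0.0387) passed too. For LDLRAD4 the values were 15 and 11.8 CPM with JIB-04 and 16.5 and 15.2 CPM with DMSO at 48 h, and 20.9 and 24.5 CPM with JIB-04 and 8.62 and 10.2 CPM with DMSO at 24 h. THSD7A (adjusted p = 0.0755) and FOXN3 (0.0561) missed the threshold, as did the early-higher genes SLC1A3 (0.116), ZNF536 (0.191) and RGPD6 (0.224), a member of a family of near-identical copies. APOBEC3B, a cytidine deaminase with close paralogs, had 3.26 and 3.18 CPM with JIB-04 and 3.14 and 3.4 CPM with DMSO at 48 h, against 3.87 and 3.45 CPM with JIB-04 and 8.12 and 8.20 CPM with DMSO at 24 h. Only DMSO at 24 h was high, the effects were -0.02 ± 0.18 and -1.16 ± 0.17. Its change of 1.13 ± 0.25 passed (adjusted p = 0.0428). CYTH4 (0.0834), CCDC121 (0.0679), MAP6D1 (0.157) and MAN1B1-DT (0.336) did not pass.

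DNAJB9, HSPA5, ERO1B and ERN1, genes of the endoplasmic reticulum stress response, were higher with JIB-04 at both times, and no change of these effects passed. DNAJB9 (chr7:108569568-108574850), a co-chaperone of HSPA5, had 12.2 and 18.2 CPM with JIB-04 and 6.22 and 6.54 CPM with DMSO at 48 h, against 13.6 and 17.9 CPM with JIB-04 and 3.42 and 2.45 CPM with DMSO at 24 h. JIB-04 and DMSO libraries did not overlap at either time. Its effects of 1.25 ± 0.25 at 48 h and 2.43 ± 0.27 at 24 h passed in the GC-adjusted fit (adjusted p = 0.00127 and 0.000185), while the change of -1.17 ± 0.36 did not (adjusted p = 0.0606). The JIB-04 arm was -0.05 ± 0.24 and the DMSO arm 1.12 ± 0.27. HSPA5, the main chaperone of the compartment, had 669 and 760 CPM with JIB-04 and 478 and 497 CPM with DMSO at 48 h, against 772 and 887 CPM with JIB-04 and 469 and 433 CPM with DMSO at 24 h, with a change of -0.33 ± 0.16 (adjusted p = 0.133). ERO1B, which drives disulfide formation, had effects of 0.68 ± 0.19 and 1.37 ± 0.19 and a change of -0.69 ± 0.27 (adjusted p = 0.248), and ERN1, the sensor IRE1alpha, 0.28 ± 0.14, 0.75 ± 0.14 and -0.47 ± 0.20 (adjusted p = 0.121). Of the 26 listed genes of the unfolded protein response, 0 passed for the change in either direction in the GC-adjusted fit (1 positive and 7 negative at an unadjusted p under 0.05, a level that 7.94% of all tested genes reached as positive and 7.76% as negative). In the plain fit 17 of the 26 changes were negative, with a median of -0.13 against 0.01 over all tested genes, and in the GC-adjusted fit the list median was -0.05. Their effects had medians of 0.21 at 48 h and 0.26 at 24 h.

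The promoters of HSPA5 and ERO1B are shown since both hold the endoplasmic reticulum stress element, searched as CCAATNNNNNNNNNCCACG on both strands, which contains the CCAAT box. They are the 250 bases before the RefSeq start on GRCh38.p14, read 5′ to 3′ on the gene's strand, with the element in capitals (for ERO1B as its reverse complement).
HSPA5 (chr9:125241344-125241593, minus strand): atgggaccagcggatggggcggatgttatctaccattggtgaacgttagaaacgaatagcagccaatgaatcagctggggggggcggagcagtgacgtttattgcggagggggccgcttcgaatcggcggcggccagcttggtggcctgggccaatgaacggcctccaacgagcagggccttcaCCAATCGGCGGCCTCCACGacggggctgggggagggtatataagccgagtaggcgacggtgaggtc
ERO1B (chr1:236281959-236282208, minus strand): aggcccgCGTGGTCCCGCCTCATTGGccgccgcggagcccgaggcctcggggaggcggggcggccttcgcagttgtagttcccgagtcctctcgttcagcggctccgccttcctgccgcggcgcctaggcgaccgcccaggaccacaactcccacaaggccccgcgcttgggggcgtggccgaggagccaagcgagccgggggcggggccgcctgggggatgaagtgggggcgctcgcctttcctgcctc
The element was in 6 of the 23 listed promoters with an entry (26.1%; HSPA5, HSP90B1, CALR, CANX, CRELD2 and XBP1), against 22 of all 27305 promoters (0.0806%) and 14 of the 10585 promoters of tested genes (0.132%), in windows of 300 bases that reach 50 bases past the start. Among 63 promoters of early-higher genes it was in that of ERO1B alone. Of the 14 tested holders of the element, only ERO1B and those in the list are described here. Their change was -0.69 ± 0.27 for ERO1B, -0.33 ± 0.16 for HSPA5, -0.17 ± 0.23 for HSP90B1, -0.20 ± 0.19 for CANX, 0.08 ± 0.16 for CALR, 0.36 ± 0.42 for CRELD2 and 0.04 ± 0.17 for XBP1. The list was drawn up by function, as genes of the response that the element is named for. Its share therefore describes the list and says nothing about the change with time. A match is a description of letters, not of binding.

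Opposite effects at the times were found in 14 genes, and in 11 to 67 with single libraries left out (67 without DMSO 24 h replicate 1, 24 without JIB-04 24 h replicate 1). Of the 14, 2 were expressed well enough to be named. MINAR1 had 2.61 and 3.22 CPM with JIB-04 and 5.04 and 4.95 CPM with DMSO at 48 h, against 4.24 and 4.46 CPM with JIB-04 and 3.12 and 2.31 CPM with DMSO at 24 h, so that JIB-04 was below DMSO at 48 h and above it at 24 h. Its change of -1.45 ± 0.31 passed (adjusted p = 0.0363). TREM1, a receptor that amplifies inflammation in myeloid cells, ran the other way, with 2.45 and 2.37 CPM with JIB-04 and 1.54 and 1.63 CPM with DMSO at 48 h, against 1.70 and 2.28 CPM with JIB-04 and 4.01 and 3.08 CPM with DMSO at 24 h. Its change of 1.43 ± 0.36 did not pass (adjusted p = 0.0508).

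Lasting effects included the cystine importer. SLC7A11 (chr4:138164097-138242349) had 54.2 and 59.5 CPM with JIB-04 and 118 and 119 CPM with DMSO at 48 h, against 46.1 and 57.8 CPM with JIB-04 and 99.5 and 81.2 CPM with DMSO at 24 h. JIB-04 was lower by 1.06 ± 0.15 and 0.80 ± 0.15 on the log2 scale, without overlap at either time, and both effects passed in the GC-adjusted fit (adjusted p = 5.97e-05 and 0.00015). The change was -0.26 with a 95% interval of -0.75 to 0.23, and -0.01 in the GC-adjusted fit (adjusted p = 0.972). S100P (chr4:6693069-6697170), a calcium-binding protein, had 4.02 and 3.89 CPM with JIB-04 and 18.6 and 17.2 CPM with DMSO at 48 h, against 0.645 and 0.609 CPM with JIB-04 and 2.18 and 2.4 CPM with DMSO at 24 h. It rose between the times in both arms, by 2.64 ± 0.21 with JIB-04 and 2.96 ± 0.17 with DMSO (plain fit, adjusted p = 0.00489 and 0.00109), and the effect, -2.17 ± 0.16 at 48 h and -1.86 ± 0.22 at 24 h, had a change of -0.31 (95% interval -0.97 to 0.34). PSAT1, an enzyme of serine synthesis, had effects of -0.79 ± 0.11 and -0.93 ± 0.11 and a change of 0.14 (-0.20 to 0.49), and STC2, a secreted glycoprotein, had a change of 0.02 (-0.47 to 0.50). CHAC1, which degrades glutathione, had a change of 0.14 (-0.88 to 1.15), and DDIT4, an inhibitor of mTORC1, of 0.83 (-0.07 to 1.74), intervals wide enough to hold sizeable changes. The chemokine CCL2 had effects of -0.75 ± 0.14 and -1.01 ± 0.14 and a change of 0.26 (-0.20 to 0.71).

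Named genes with a lasting positive effect included STAT5A, a transcription factor of cytokine signalling, with 5.11 and 4.22 CPM with JIB-04 and 1.28 and 1.09 CPM with DMSO at 48 h, against 5.16 and 4.62 CPM with JIB-04 and 1.39 and 2.04 CPM with DMSO at 24 h. The JIB-04 values were alike at both times and above all DMSO values, and the change was 0.47 (95% interval -0.36 to 1.29). CREBRF, which regulates the transcription factor CREB3, had effects of 1.51 ± 0.20 and 1.32 ± 0.20 with a change of 0.19 (-0.46 to 0.83), KLHL24, a substrate adaptor of a ubiquitin ligase, 1.39 ± 0.20 and 1.51 ± 0.20 with a change of -0.12 (-0.75 to 0.51), and MAML2, a Notch co-activator, 1.85 ± 0.27 and 1.23 ± 0.27 with a change of 0.61 (-0.26 to 1.49). A missed threshold in these genes does not show that the effects were equal. VLDLR-AS1, antisense to VLDLR, was also in the class, and its reads cannot be told from those of VLDLR where counting ignored strand, a setting not given in the sources used here.

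Every change is the difference of its JIB-04 arm (48 h over 24 h with JIB-04) and its DMSO arm (the same with DMSO), which are its parts and no further support. Among the 101 genes with a positive change that passed, the JIB-04 arm was the larger in 35 and the DMSO arm in 66. DMSO was lower at 48 h in 86 of them and JIB-04 higher at 48 h in 71, and 70 had a positive effect at 48 h and a negative one at 24 h. Among the 64 negative changes that passed, the JIB-04 arm was the larger in 27 and the DMSO arm in 37, JIB-04 was lower at 48 h in 52 and DMSO higher in 59, and 52 had a negative effect at 48 h and a positive one at 24 h. The effect was larger in size at 48 h in 77 of the 165 genes and at 24 h in 88.

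**Figure D3:**
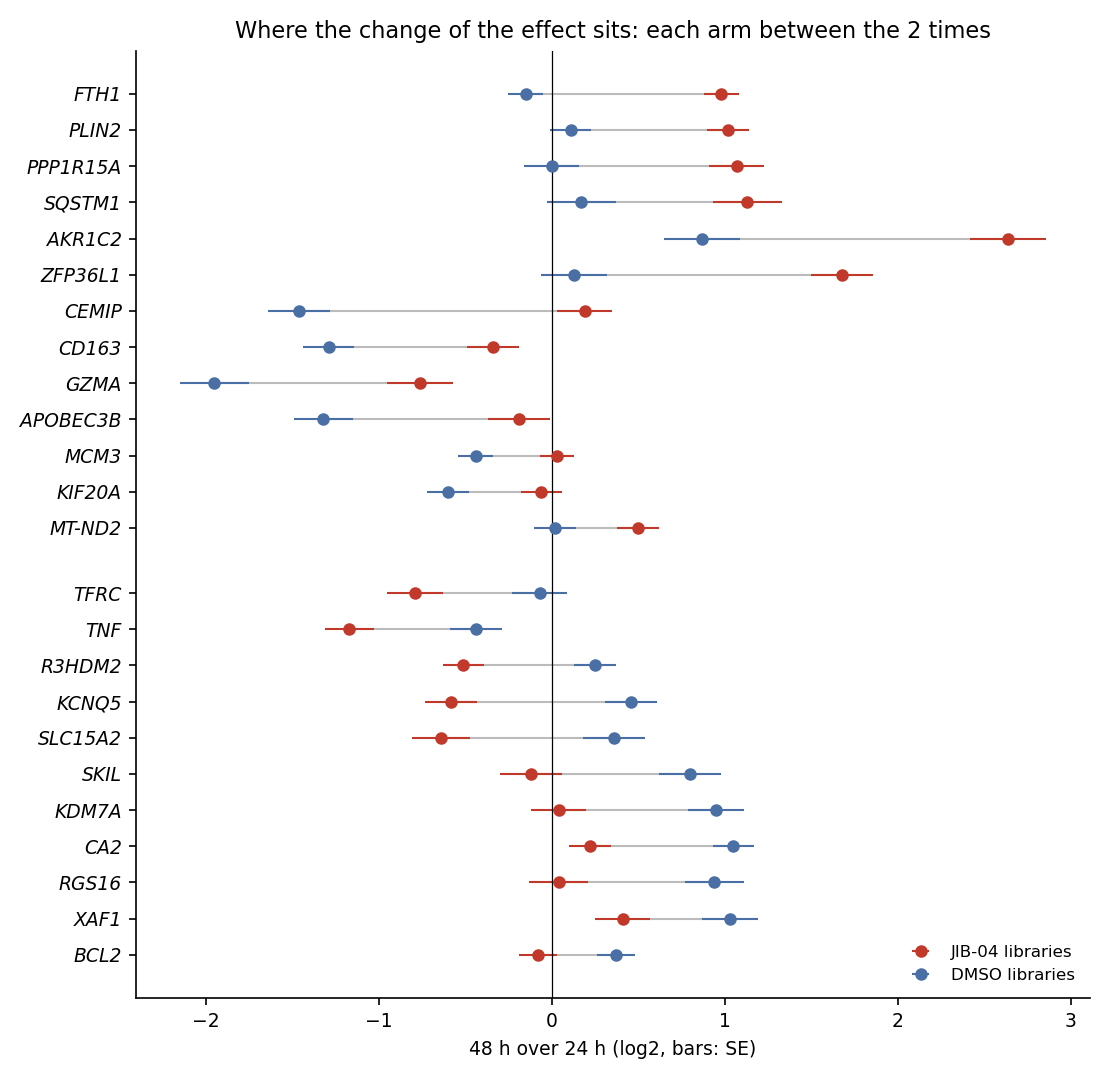
Difference between 48 h and 24 h within the JIB-04 libraries (red) and within the DMSO libraries (blue) for 24 named genes, as log2 values of the plain fit with SE bars, positive changes of the effect in the upper block and negative ones in the lower. FTH1 and PLIN2 have a JIB-04 arm near 1 and a DMSO arm near 0, while CEMIP, CA2 and APOBEC3B have a DMSO arm beyond 1 in size and a JIB-04 arm near 0.

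All 42 listed genes of G1/S and DNA replication and all 36 of G2/M and mitosis had a positive change in the plain fit, against 51% of all tested genes, with medians of 0.33 and 0.29 against 0.01. In the GC-adjusted fit 9 of the 42 and 10 of the 36 passed, all positive, and the other 33 and 26 did not, beside 1.08% called among all genes. For G1/S genes the median effect was 0.07 at 48 h and -0.28 at 24 h, the JIB-04 arm had a median of -0.03 and the DMSO arm of -0.39, and 36 of 42 passed as lower at 48 h within DMSO in the GC-adjusted fit, against 7.06% of all tested genes. For G2/M genes the effects had medians of 0.13 and -0.10 and the arms of -0.16 and -0.41, and 33 of 36 passed as lower within DMSO. MCM3, a subunit of the replicative helicase, had 309 and 282 CPM with JIB-04 and 296 and 294 CPM with DMSO at 48 h, against 302 and 279 CPM with JIB-04 and 406 and 395 CPM with DMSO at 24 h. Only DMSO at 24 h was high, the effects were 0.01 ± 0.10 and -0.46 ± 0.10. Its change of 0.47 ± 0.14 passed (adjusted p = 0.0285). GINS2, of the same helicase complex, had 43.6 and 41.5 CPM with JIB-04 and 39.9 and 40.0 CPM with DMSO at 48 h, against 41.3 and 39.9 CPM with JIB-04 and 60.6 and 54.5 CPM with DMSO at 24 h (change 0.59 ± 0.17, adjusted p = 0.0272), and MCM6 passed at 0.32 ± 0.15 (adjusted p = 0.0428). KIF20A, a kinesin of cytokinesis, had 47.1 and 42.6 CPM with JIB-04 and 44.2 and 44.9 CPM with DMSO at 48 h, against 45.8 and 48.0 CPM with JIB-04 and 71.6 and 63.3 CPM with DMSO at 24 h. Its change of 0.53 ± 0.17 passed (adjusted p = 0.0406). The mitotic cyclin CCNB2 (0.43 ± 0.21, adjusted p = 0.0417) and the proliferation marker MKI67 (0.41 ± 0.15, adjusted p = 0.0402) passed too.

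Since every member of these lists had a positive change, promoters of some are shown: MCM3, MCM6 and GINS2 with matches to TTTCCCGC or TTTGGCGC, forms of the site bound by E2F factors, and KIF20A and CCNB2 with matches to CCAAT, the box bound by NF-Y. Both strands were searched. Windows, build and source are as for HSPA5, and the capitals mark the matches, as the reverse complement in GINS2 and KIF20A.
MCM3 (chr6:52284743-52284992, minus strand): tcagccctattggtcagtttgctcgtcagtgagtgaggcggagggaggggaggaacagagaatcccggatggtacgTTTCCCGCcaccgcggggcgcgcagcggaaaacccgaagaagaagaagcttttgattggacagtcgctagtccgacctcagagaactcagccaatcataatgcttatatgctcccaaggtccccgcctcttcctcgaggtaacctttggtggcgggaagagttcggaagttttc
MCM6 (chr2:135876444-135876693, minus strand): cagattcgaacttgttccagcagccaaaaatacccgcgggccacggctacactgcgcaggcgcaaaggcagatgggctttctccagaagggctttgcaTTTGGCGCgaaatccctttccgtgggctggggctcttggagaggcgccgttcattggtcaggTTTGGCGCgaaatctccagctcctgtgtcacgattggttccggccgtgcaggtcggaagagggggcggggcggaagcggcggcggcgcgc
GINS2 (chr16:85688955-85689204, minus strand): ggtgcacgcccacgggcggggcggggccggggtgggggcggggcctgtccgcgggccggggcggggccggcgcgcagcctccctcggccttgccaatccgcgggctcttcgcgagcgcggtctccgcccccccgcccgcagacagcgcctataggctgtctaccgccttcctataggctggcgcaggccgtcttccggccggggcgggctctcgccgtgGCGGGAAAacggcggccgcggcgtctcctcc
KIF20A (chr5:138178862-138179111, plus strand): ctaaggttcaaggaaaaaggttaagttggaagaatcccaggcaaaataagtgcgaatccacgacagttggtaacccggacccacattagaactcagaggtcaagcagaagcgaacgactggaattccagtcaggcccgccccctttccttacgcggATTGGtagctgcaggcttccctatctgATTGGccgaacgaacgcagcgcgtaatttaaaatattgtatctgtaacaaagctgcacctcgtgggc
CCNB2 (chr15:59104896-59105145, plus strand): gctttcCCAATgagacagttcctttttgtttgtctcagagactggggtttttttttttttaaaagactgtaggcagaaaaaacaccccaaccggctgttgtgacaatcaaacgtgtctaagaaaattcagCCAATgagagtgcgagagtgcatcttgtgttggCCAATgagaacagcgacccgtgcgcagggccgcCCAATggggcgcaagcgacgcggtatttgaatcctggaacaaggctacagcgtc
Of the 35 listed G1/S promoters with an entry, 18 (51.4%) held at least 1 of the E2F forms, against 2.31% of all 27305 promoters and 3.71% of the 10585 promoters of tested genes. Of the 30 G2/M promoters, 24 (80%) held CCAAT, against 35.7% of all and 36.7% of those of tested genes. The share was as high in 2 lists without a gene that passed for the change. CCAAT was in 20 of 23 promoters of the unfolded protein response list (87%, median change -0.13). It was in 15 of 18 of the cholesterol synthesis list (83.3%, median change 0.20). Over the genes whose change passed, the E2F forms were in 9 of 71 promoters with a positive change (12.7%) and in 1 of 50 with a negative one (2%), and CCAAT in 37 (52.1%) and 13 (26%). These sets overlap with the lists and are no further support: MCM6, CDC6, MCM3, GINS2 and NUSAP1, among the 9, are list members. The G1/S and G2/M lists, too, were drawn up by function, so that the shares in them describe the lists and not the change with time. Here too a match is a description of letters, not of binding, and a part of E2F factors or NF-Y in the change was not tested.

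**Figure D4:**
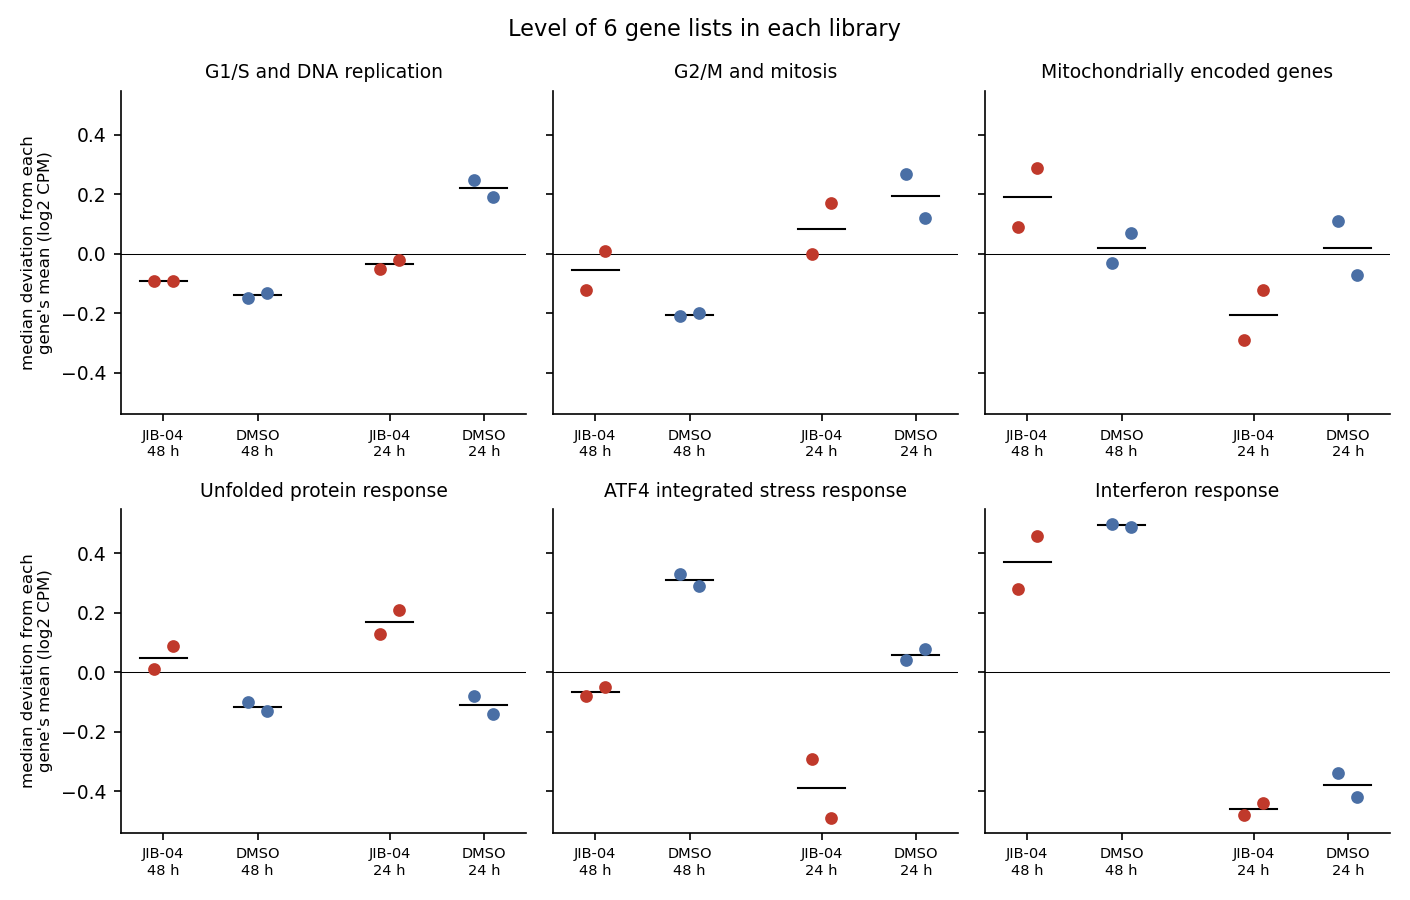
Level of 6 gene lists in each library, as the median over members of the deviation of log2 CPM from the gene's own mean over the 8 libraries (plain scaling; JIB-04 red, DMSO blue, bar the mean of 2 libraries). G1/S genes are highest in the 2 DMSO libraries at 24 h (0.25 and 0.19), mitochondrially encoded genes lowest in the 2 JIB-04 libraries at 24 h (-0.29 and -0.12), and interferon genes are high at 48 h and low at 24 h in both arms.

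Mitochondrially encoded transcripts, which specify core subunits of the respiratory chain, also all had a positive change, with the larger arm in JIB-04 by the list medians. The median over the 13 was 0.37, and 7 passed in the GC-adjusted fit, beside 1.08% called among all genes. The median effect was 0.15 at 48 h and -0.24 at 24 h, and the arms were 0.33 with JIB-04 and -0.02 with DMSO. MT-ND2, a subunit of complex I, had 3760 and 4420 CPM with JIB-04 and 3600 and 3780 CPM with DMSO at 48 h, against 2680 and 3130 CPM with JIB-04 and 3900 and 3370 CPM with DMSO at 24 h, so that JIB-04 at 24 h was low. Its change of 0.47 ± 0.17 passed (adjusted p = 0.016), as did that of MT-ND5 (0.51 ± 0.17, adjusted p = 0.0285). Among the 44 nuclear-encoded subunits of oxidative phosphorylation, 40 had a positive change, with a median of 0.17. Of the 44, 1 passed, beside 1.08% called among all genes (UQCRB, of complex III, 0.36 ± 0.26 in the plain fit, adjusted p = 0.0285).

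Interferon-response genes were higher at 48 h in both arms. Of the 42 interferon-response genes, 41 were higher at 48 h with JIB-04 and 40 with DMSO, with medians of 0.86 and 0.95. In the GC-adjusted fit 36 passed as higher with JIB-04 and 34 with DMSO, against 3.31% and 6.51% of all tested genes. The antiviral GTPase MX1 had 28.8 and 26.7 CPM with JIB-04 and 37.3 and 34.9 CPM with DMSO at 48 h, against 7.5 and 7.3 CPM with JIB-04 and 10.3 and 10.3 CPM with DMSO at 24 h. It rose by 1.90 ± 0.14 with JIB-04 and 1.81 ± 0.13 with DMSO (plain fit, adjusted p = 0.00346 and 0.00419). Its change of 0.09 (95% interval -0.33 to 0.52) did not pass. The median change over the list was -0.01, and XAF1 alone passed, negative, beside 1.08% called among all genes. ATF4 targets had median effects of -0.39 at 48 h and -0.41 at 24 h and arms of 0.36 and 0.26. Their median change was 0.14, and 0.05 in the GC-adjusted fit, and PPP1R15A and DDIT3 passed among 37, beside 1.08% called among all genes. ATF4 itself had 829 and 774 CPM with JIB-04 and 939 and 947 CPM with DMSO at 48 h, against 568 and 525 CPM with JIB-04 and 760 and 696 CPM with DMSO at 24 h (change 0.18 ± 0.14, adjusted p = 0.877). Among 28 NRF2 targets 5 passed, all positive (FTH1, FTL, SQSTM1, AKR1C1 and AKR1C2), and 23 did not, beside 1.08% called among all genes. FTH1 and FTL are also in the iron list. The list median was 0.15, with arm medians of 0.13 with JIB-04 and -0.00 with DMSO. In the plain fit 21 of the 28 changes were positive and 7 negative, GCLC (-0.52), GCLM (-0.48), SLC7A11 (-0.26) and ABCC2 (-0.60) among the negative ones. NQO1, a defining target, had a change of 0.23 ± 0.23 (adjusted p = 0.451), and HMOX1, which frees iron from heme, of 0.46 ± 0.44 (adjusted p = 0.769).

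Of 29 genes of myeloid differentiation, 24 had a positive change in the plain fit (median 0.33) and 21 in the GC-adjusted fit (median 0.19), where CD163, LYZ and VCAN passed. Beside this and the other counts of passing genes in this paragraph, 1.08% of all tested genes passed. The list's median effect at 48 h was 0.36 in the plain fit and 0.06 in the GC-adjusted fit. In the BCL2 family, the target of venetoclax BCL2 had 225 and 250 CPM with JIB-04 and 300 and 283 CPM with DMSO at 48 h, against 239 and 262 CPM with JIB-04 and 234 and 216 CPM with DMSO at 24 h. DMSO at 48 h was the highest group, and the BCL2 change of -0.45 ± 0.16 passed (adjusted p = 0.0447). BCL2A1, an anti-apoptotic member, had 12.2 and 17.0 CPM with JIB-04 and 3.50 and 4.90 CPM with DMSO at 48 h, against 5.48 and 6.59 CPM with JIB-04 and 4.36 and 3.49 CPM with DMSO at 24 h, and passed at 1.18 ± 0.35 (adjusted p = 0.0417). The death-promoting BCL2L11 (0.39 ± 0.17, adjusted p = 0.0948) and the protective MCL1 (0.04 ± 0.20, 0.675) were among the 17 of 19 that did not. KDM7A was the only member of 28 JmjC-domain genes to pass, beside 1.08% called among all genes. KDM4A (-0.09 ± 0.15), KDM5A (0.02 ± 0.19) and KDM3A (-0.04 ± 0.21) had changes near 0, while TYW5 (-0.38), JMJD1C (-0.31), KDM4C (-0.30) and RIOX2 (-0.29) were further below it. In the plain fit 14 of the 28 were positive and 14 negative. In the GC-adjusted fit 10 were positive and 18 negative (median -0.08), with 0 positive and 4 negative at an unadjusted p under 0.05, beside 7.94% and 7.76% of all tested genes. Of 12 metallothioneins and zinc transporters MT1F passed (0.75 ± 0.30, adjusted p = 0.0462), and MT2A, with 40.7 and 26 CPM with JIB-04 and 6.37 and 7.22 CPM with DMSO at 48 h, against 28.8 and 21 CPM with JIB-04 and 10.4 and 26.6 CPM with DMSO at 24 h, did not (1.86 ± 0.57, 0.113). Metallothionein genes are near-identical copies. Of 35 immediate early genes FOS passed as positive and EGR1 and KLF10 as negative. In the lists for MYC and ribosome biogenesis (33 genes, median 0.03), cholesterol synthesis (24, 0.20), p53 targets (27, 0.11), lysosome (33, 0.21), heat shock (20, 0.03) and hypoxia with glycolysis (30, 0.15), 0 genes passed in either fit by edgeR. At an unadjusted p under 0.05 in the GC-adjusted fit, 7.94% of all tested genes were positive and 7.76% negative. The positive and negative members at that level were 2 and 3, 8 and 0, 3 and 2, 6 and 3, 2 and 2, and 5 and 2 in the same order of lists. The list medians of the GC-adjusted fit were -0.06, 0.18, 0.05, 0.09, 0.04 and 0.09 in the same order.

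**Figure D5:**
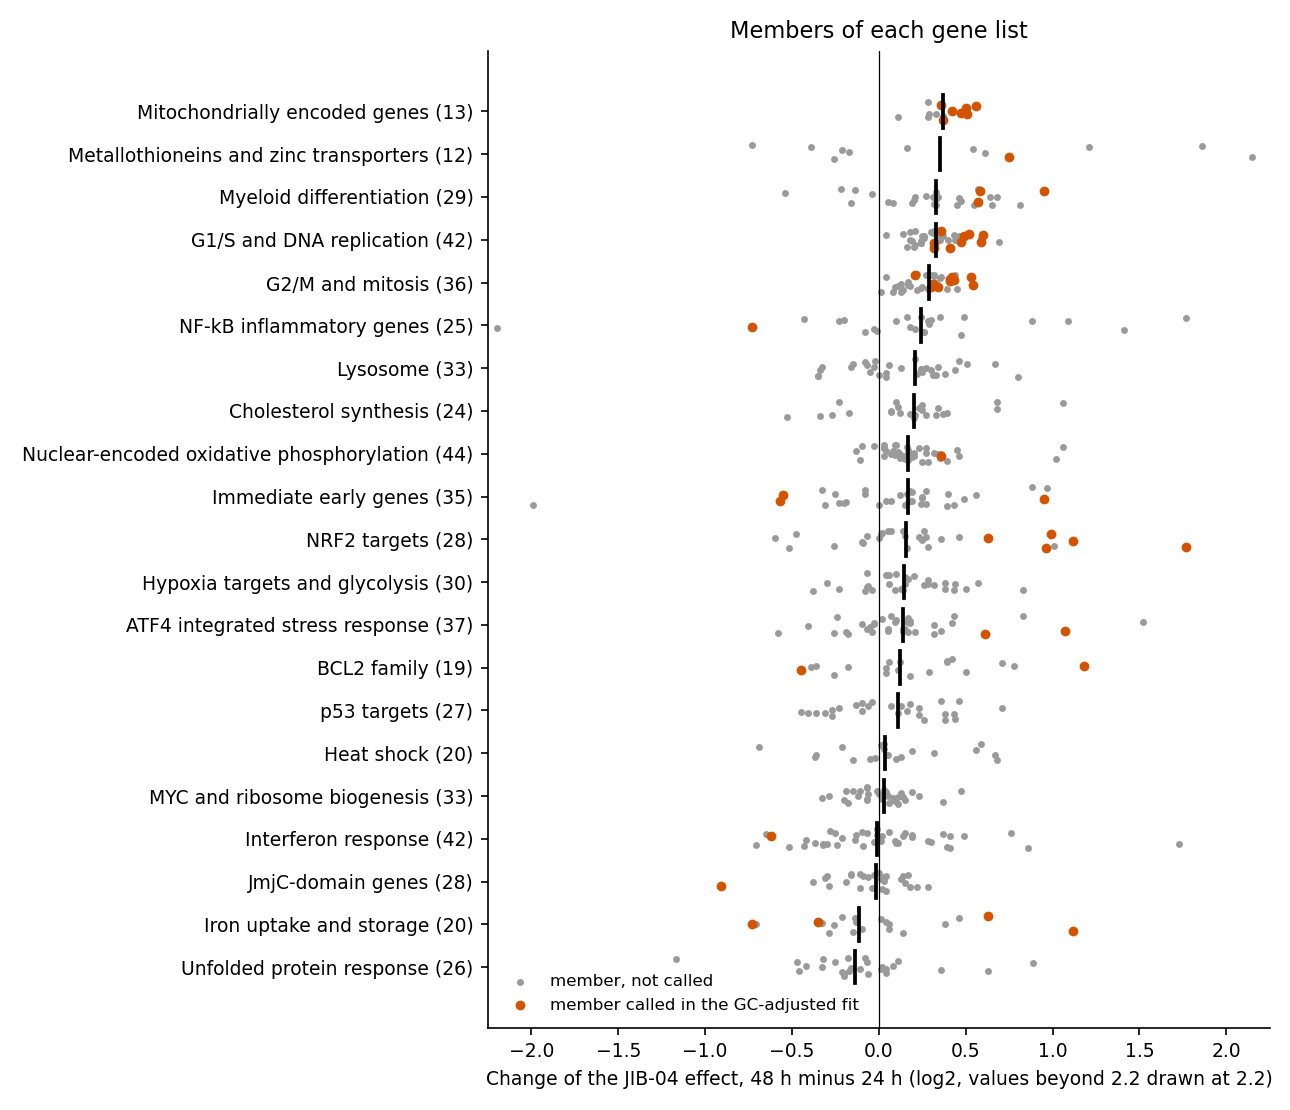
Change of the JIB-04 effect (48 h minus 24 h, log2, plain fit) of every tested member of the 21 gene lists, number of members in brackets, with the list median as a black bar and the members called in the GC-adjusted fit in orange. 1 member beyond 2.2 is drawn at the edge of the axis; all members of the mitochondrially encoded, G1/S and G2/M lists lie right of 0, and the unfolded protein response has the lowest median in this fit.

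The authors' deposited tables, which compare JIB-04 with DMSO at each time and hold no comparison between times, gave 438 genes at an adjusted p under 0.05 at 48 h and 23 at 24 h. Both lists of the authors' deposited tables held 17 genes in common, 3.88% of the 48 h list and 73.9% of the 24 h list, all with the same sign at both times. Of the 23 genes in the 24 h list, 21 had an adjusted p at 48 h and could be shared. In the authors' deposited table FTH1 had a log2 fold change of 1.19 at 48 h and 0.06 at 24 h, TFRC 0.58 and 1.30, CEMIP 2.85 and 1.19, and DNAJB9 1.24 and 2.41.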

How the data were processed

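RNA was taken with TRIzol and made into stranded mRNA libraries, per the labels' protocols. Reads were trimmed with cutadapt, aligned with STAR 2.6.1 to hg38 and quantified with RSEM, per the submitters' processing notes. No strand setting was given in these notes. The deposited tables hold expected counts per gene, which are whole numbers in the files, beside TPM, which the authors also deposited and no test used. They also hold the authors' log2 fold changes and p-values of JIB-04 against DMSO at each time; their tool was not given in these sources.

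The tables were joined on the gene identifier; genes in only 1 table, with 0.00581% of counts, were left out. Counts of all 8 libraries were fitted in edgeR 4.0.16 (R 4.3.3; filterByExpr with a minimum count of 10 and total of 15, TMM, quasi-likelihood test with Benjamini-Hochberg adjustment, 4 residual degrees of freedom), with 1 mean per group. The GC-adjusted fit added each library's spline on gene GC content (6 degrees of freedom, GENCODE 29, known for 99.9% of tested genes) as an offset. The common dispersion was 0.0218 without and 0.00442 with it. An exact test of 2 against 2 libraries cannot go below p = 0.333, so that single values were not tested apart from the fits. DESeq2 1.42.0, limma-voom (limma 3.58.1), RLE scaling, no filter, the replicate block and leaving out each library were alternatives. Scripts were tested on simulated data. Named genes were up to 10 per direction by the change, called genes first and then by unadjusted p, among those with a mean log2 CPM of at least 1, up to 5 per class and direction, up to 3 per list, and a panel of 16. Other genes that passed in the GC-adjusted fit, and other list members, were described beside these and were picked with their values known. The genes, lists and motifs were chosen with earlier results of these data known. Promoters are RefSeq's on GRCh38.p14, whose starts can differ from GENCODE's; 10585 tested genes matched an entry.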

Additional observations from a re-analysis of the deposited data

Results flagged for a closer look

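The effect of JIB-04 differed between 48 h and 24 h, by the test of the difference itself, in 165 genes of the GC-adjusted fit and in 0 genes of the plain fit, where 798 had an unadjusted p under 0.05. MINAR1 stood out because every JIB-04 library was below the DMSO libraries at 48 h and above them at 24 h (change -1.45 ± 0.31, adjusted p = 0.0363 in the GC-adjusted fit). TREM1 stood out for the opposite pattern, above at 48 h and below at 24 h (change 1.43 ± 0.36, adjusted p = 0.0508 in the GC-adjusted fit).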

How the results depend on the processing

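The number of genes called for the change was 0 in the plain fit, with RLE scaling and with any single library left out; it was 12 with DESeq2, 1 with limma-voom, 1 with no filter on low counts and 165 with GC adjustment. With single libraries left out, an alternative chosen after seeing the data, the 165 became 5 and 10 without JIB-04 48 h replicate 1 or 2, 0 and 5 without DMSO 48 h replicate 1 or 2, 9 and 6 without JIB-04 24 h replicate 1 or 2, and 255 and 158 without DMSO 24 h replicate 1 or 2. For the effect at 48 h the plain fit called 59 genes, against 142 with DESeq2, 1232 with GC adjustment and 0 to 108 with single libraries left out. For the effect at 24 h it called 0, against 87 with DESeq2, 36 with no filter, 1628 with GC adjustment and 0 to 1 with single libraries left out. Late genes numbered 109 with DESeq2, 134 at 2-fold and 135 to 373 with single libraries left out. Early genes numbered 61, 74 and 78 to 434 under the same settings, and lasting genes 78, 44 and 106 to 327. Spearman's rho of the effects at 48 h on those at 24 h ranged from 0.0136 to 0.426 with single libraries left out. The causes were not tested.

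Replicate differences did not go together across all groups. Their correlation was -0.795 between the 24 h groups, -0.756 between JIB-04 48 h and DMSO 24 h, and 0.883 between JIB-04 48 h and JIB-04 24 h. After removal of the GC trend these values were -0.432, -0.335 and 0.54. With DMSO 48 h the correlation was 0.0838 for JIB-04 48 h, 0.0809 for JIB-04 24 h and 0.0988 for DMSO 24 h. Whether replicate numbers pair the libraries was not tested. With the replicate block, 0 genes were called for the change, 8 for the effect at 48 h and 0 for that at 24 h. With GC adjustment and the block together the counts were 84, 987 and 1335. Crossed numbers, chosen after seeing the data, gave 2 genes for the change, 263 for the effect at 48 h and 194 for that at 24 h.

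Of 1605 values of 107 named genes under other settings, 1591 kept the sign of the plain fit. The others were small changes of 4 lasting genes. CHAC1 was -0.11 with GC adjustment, -0.10 with the block added and -0.29 to 0.68 without single libraries. KLHL24 was 0.08, 0.08 and -0.38 to 0.10 in the same order, and STC2 was -0.01, -0.02 and -0.15 to 0.21. CREBRF was -0.05 to 0.48 without single libraries. With 2 libraries per group, a change that did not pass may still be present.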
